A study of Mus musculus with 2 samples.

Results

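Amino acid transporter genes were examined on 2 arrays of mouse ventral prostate, 1 from the sample labelled U19/Eaf2 -/- and 1 from the sample labelled U19/Eaf2 +/+. Both samples came from male C57BL/6J mice aged 3 months. U19/Eaf2 is an androgen-induced partner of the ELL elongation factors, and the series asked which transcripts of the gland differ without it. The members were all genes of the solute carrier families Slc1, Slc3, Slc6, Slc7, Slc36, Slc38 and Slc43 that had a probe set annotated with that gene alone. They numbered 58 genes of 18193, read by 118 probe sets. The brightest probe set of a gene, by its log2 signal averaged over the 2 arrays, stands for that gene. The samples are named as ventral prostates in the plural, and the sources used here give neither the number of animals behind an array nor the extent of the deletion or whether it was confined to a cell type. The arrays are called the KO-labelled array and the WT array below.

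These families carry amino acids across membranes in different ways. Slc1 and Slc38 proteins use the sodium gradient to concentrate glutamate, glutamine and small neutral amino acids. Slc7 light chains pair with Slc3 heavy chains into exchangers that trade one amino acid for another. Many Slc6 proteins move neurotransmitters or osmolytes, while Slc36 and some Slc38 proteins act at the lysosome, where amino acids are reported to the growth kinase mTORC1. The ventral lobe is a secretory gland with heavy protein output, and rat prostate epithelium is known to take up aspartate for citrate production.

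The targeted gene did not separate the arrays. Eaf2 had a signal of 702 on the KO-labelled array and 691 on the WT array. A probe set outside the deleted part would check nothing, so every direction below rests on the label. The median signal over probe sets other than controls was 154 on the KO-labelled array and 177 on the WT array. The Actb 3' over 5' signal ratio, a guide to RNA degradation, was 1.65 on the KO-labelled array and 1.25 on the WT array, and that of Gapdh was 0.847 (KO-labelled) and 0.714 (WT). With 1 array per group there was no replicate, no test was possible, and all values describe these 2 arrays. The number of arrays limits their precision, and in a whole gland fewer cells of a type and less RNA per cell cannot be told apart.

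Transcripts of 4 member genes carry, at a listed start, a match to the composite element through which ATF4 raises transporter genes when amino acids are short. The letters searched were TGATGNAAN on both strands, in RefSeq windows of 250 bases before to 50 bases after a start (build GRCm38.p6). Such a match was found in 5 of 62 member windows, 8.06%, against 1299 of 32851 windows of all genes, 3.95%, and in 8 of 33 windows of the genes listed below for the amino acid response. Windows were held for 41 of the 58 members. Windows of 3 of the 4 genes are shown, with each match in capitals, because the genes belong to the amino acid exchangers described below; the remaining gene was Slc6a21. Overlapping windows of 1 gene are counted separately, so the shares describe windows and not genes.
Slc7a11, chr3:50443564-50443863, minus strand: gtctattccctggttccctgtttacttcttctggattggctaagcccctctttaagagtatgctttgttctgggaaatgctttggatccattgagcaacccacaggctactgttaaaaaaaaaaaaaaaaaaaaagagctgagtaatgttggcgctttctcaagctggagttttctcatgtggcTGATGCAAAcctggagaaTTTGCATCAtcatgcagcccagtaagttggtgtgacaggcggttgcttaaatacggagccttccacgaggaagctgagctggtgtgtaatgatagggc
Slc1a4, chr11:20332664-20332963, minus strand: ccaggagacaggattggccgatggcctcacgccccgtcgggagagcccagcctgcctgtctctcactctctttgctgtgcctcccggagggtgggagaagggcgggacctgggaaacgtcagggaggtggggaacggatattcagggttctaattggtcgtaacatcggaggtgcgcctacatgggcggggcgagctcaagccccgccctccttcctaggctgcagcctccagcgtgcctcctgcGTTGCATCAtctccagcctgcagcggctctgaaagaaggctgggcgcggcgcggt
Slc7a7, chr14:54417895-54418194, minus strand: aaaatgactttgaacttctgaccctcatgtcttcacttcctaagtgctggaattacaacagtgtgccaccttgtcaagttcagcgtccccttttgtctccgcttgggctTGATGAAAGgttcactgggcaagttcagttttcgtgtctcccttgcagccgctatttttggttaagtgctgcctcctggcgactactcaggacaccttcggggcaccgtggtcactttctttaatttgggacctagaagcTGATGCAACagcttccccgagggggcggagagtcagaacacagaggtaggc
The Slc7a11 window held 2 matches on opposite strands, with first bases 66 and 48 bases before the start. The Slc1a4 match, on the other strand, began 5 bases before the start and ran past it. The Slc7a7 matches, on the gene's strand, began 141 and 1 bases before the start, and the nearer ran past it. A second, overlapping Slc7a7 window held the nearer of these again. A match is a description of letters and not a shown site.

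A floor on low signals decided which members could be compared. It was a signal of 166, the 50th percentile of all non-control signals of both arrays. Of the 58 members, 30 reached it on at least 1 array, 26 on both arrays and 4 on the WT array alone. The other 28 were below it on both. Of all 18193 genes, 11671 reached it on at least 1 array and 10431 on both. Among the 6189 of these genes with a lower KO-labelled signal, 5298 were at it on both arrays, the rest on the WT array alone. Among the 5482 with a higher one, 5133 were, the rest on the KO-labelled array alone. Controls aside, 48.4% of signals reached it for the KO-labelled array and 51.6% for the WT array. Where 1 array was below the floor its value was raised to it, and the ratio, then only a lower limit of its size, is given with "at least". The probe sets differ in affinity, so signals of different genes are not ranked against each other.

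**Figure D1:**
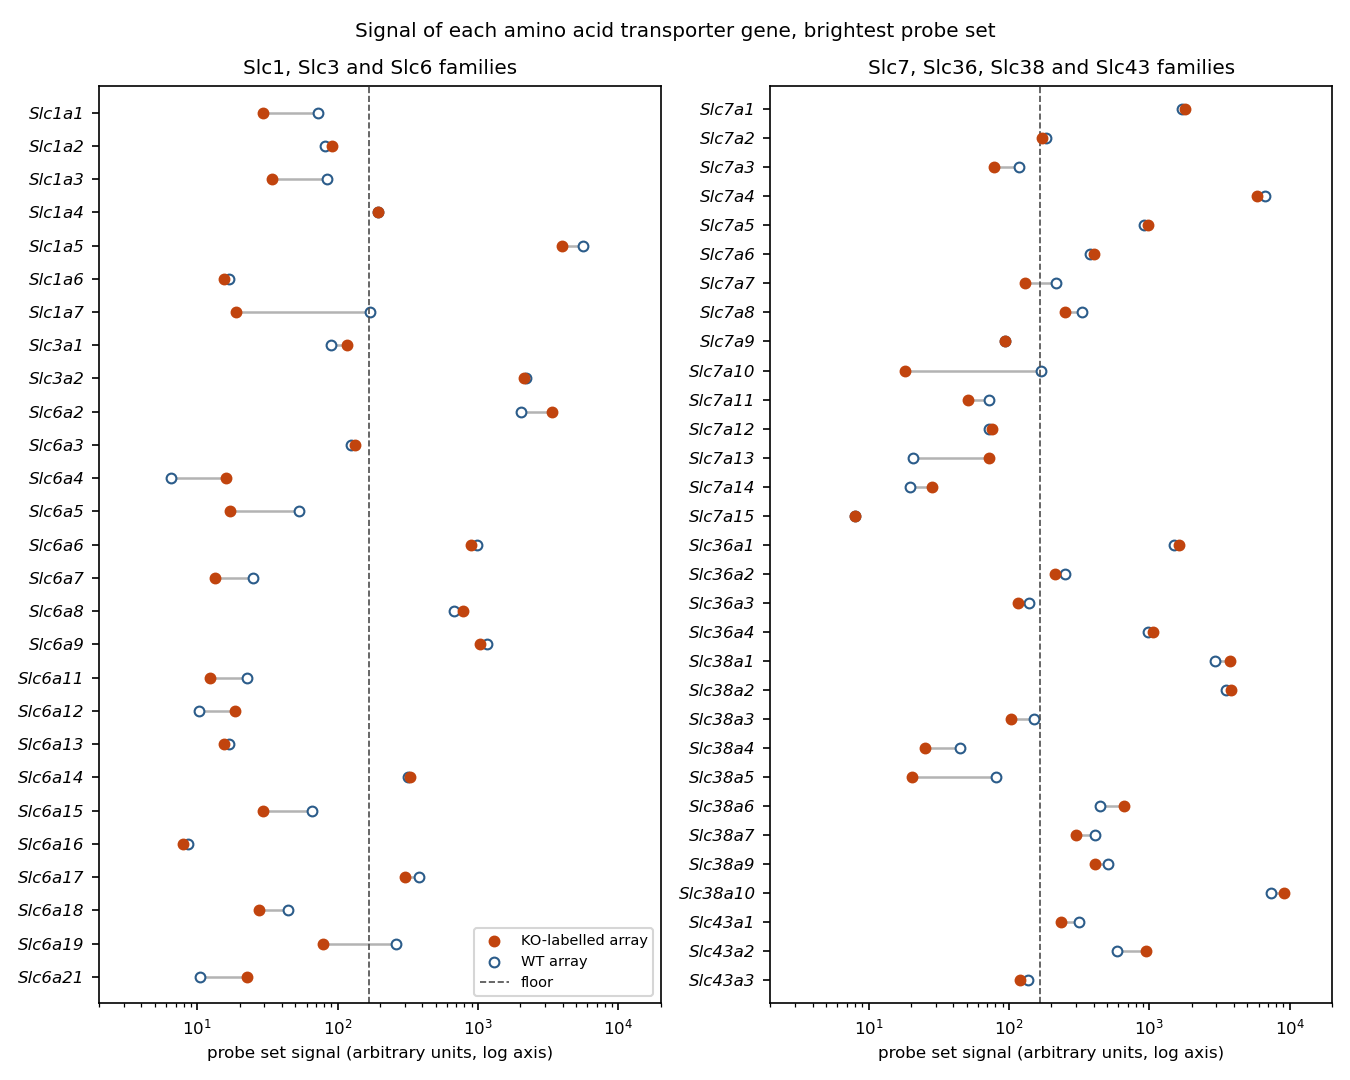
Signals (arbitrary units, log axis) of the brightest probe set of all 58 members on the KO-labelled array (filled) and on the WT array (open), 1 array each, with the floor of 166 dashed. In most of the 30 genes that reached the floor both points lie close together, and the wide gaps belong to genes with at least 1 point below it.

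None of the 26 members that reached the floor on both arrays differed by 2-fold. The other 4, Slc1a7, Slc6a19, Slc7a7 and Slc7a10, reached it on the WT array alone and have only a lower limit to their difference, so a 2-fold difference cannot be read or set aside for them. With each of these 4 taken at its limit, 0 of 30 members were at least 2-fold higher on the KO-labelled array and 0 at least 2-fold lower, against 0.591% and 0.883% of all 11671 genes that reached the floor, counted in the same way. Under a floor at the 30th percentile the limits of Slc1a7, Slc6a19 and Slc7a10 passed 2-fold. At the smaller threshold of 1.5-fold, 2 members were higher, and 1 was lower by its limit, against 4.69% and 6.26% of all genes. Of the 26, 24 lay within 1.5-fold, beside 9373 of all 10431 genes at the floor on both arrays. The limits of Slc1a7, Slc7a7 and Slc7a10 were smaller than 1.5-fold.

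The direction of the 4 members on the WT array alone was fixed by the floor, so directions are counted over the 26. Of these, 14 were higher and 12 lower, against 49.2% and 50.8% of 10431 genes at the floor on both arrays. Their median log2 ratio, the KO-labelled array over the WT array, was 0.03, and that of those genes was -0.01. With the 4 limits included, 14 of 30 were higher and 16 lower, against 47.0% and 53.0% of all genes, and both medians were -0.03. The median size of the log2 ratio over the 26, taken without its sign, was 0.21, against 0.23 for genes at the floor on both arrays. A single probe set varied by 0.354 (SD, log2) around its gene, as judged from 4497 genes with several probe sets, and 18 of the 26 ratios were smaller than that. Centring each array on its median gave 18 higher and 8 lower among 26 members at the floor on both arrays, and moved the median of all genes to 0.16.

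**Figure D2:**
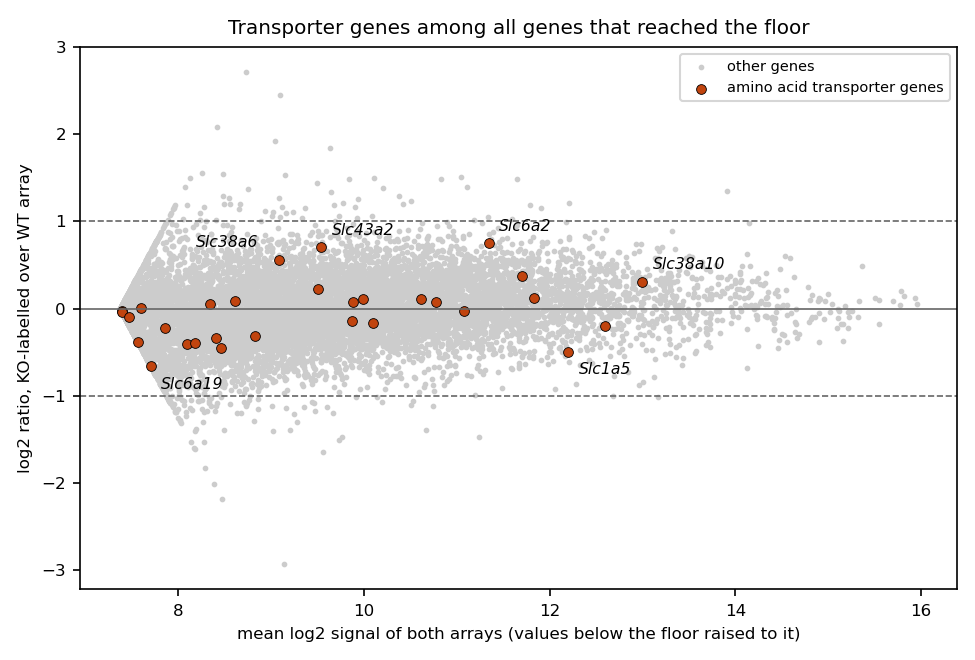
Log2 ratio, KO-labelled over WT array (vertical axis), against mean log2 signal of both arrays (horizontal axis) for the 11671 genes that reached the floor, with the 30 amino acid transporter genes in colour and the 2-fold thresholds dashed. The 30 points lie between -0.66 and 0.75, and those of Slc1a7, Slc6a19, Slc7a7 and Slc7a10 are lower limits of the difference.

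Dim and bright members split differently between the directions, and so did all genes. Of the 10 members whose higher signal was 1 to 2 times the floor, 4 were those at it on the WT array alone, whose direction the floor fixed. The other 6 were 2 higher and 4 lower on the KO-labelled array, beside 38.6% higher and 61.4% lower among 1571 genes of that range at the floor on both arrays. Of the 14 members with a signal at least 5 times the floor, all at it on both arrays, 9 were higher and 5 lower, beside 57.9% and 42.1% of 5269 such genes. The 6 members between these ranges were 3 higher and 3 lower.

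Among the sodium-coupled carriers of the Slc1 family, Slc1a5 encodes ASCT2, the glutamine and small neutral amino acid exchanger. Its signal was 3964 on the KO-labelled array and 5574 on the WT array, 1.41-fold lower, a log2 ratio of -0.49. Its other probe set read 532 on the KO-labelled array and 1110 on the WT array, 2.08-fold lower. Both Slc1a5 probe sets therefore pointed the same way, and the second was the only one of the 49 member probe sets at the floor on both arrays that differed by 2-fold. A further 6 member probe sets were at it on 1 array and have only limits. Over all 17936 probe sets of single genes at the floor on both arrays, 0.831% were at least 2-fold lower and 0.630% at least 2-fold higher. Over the 10 alternative settings the log2 ratio of Slc1a5 ran from -0.78 to -0.30. Slc1a4, the related exchanger ASCT1, read 194 on the KO-labelled array and 193 on the WT array. Its other probe set at the floor read 110 (KO-labelled) and 173 (WT), at least 1.04-fold lower.

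The neuronal and epithelial glutamate carriers were at or below the floor. Slc1a7, the retinal glutamate transporter EAAT5, read 18.8 on the KO-labelled array and 169 on the WT array, barely above the floor, so it is bounded at no less than 1.02-fold lower. Slc1a1, the carrier EAAC1 that takes up glutamate and aspartate in epithelia, read 29.2 on the KO-labelled array and 72.4 on the WT array. The glial carrier Slc1a2 read 91.0 (KO-labelled) and 81.3 (WT), and Slc1a3, also glial, 34.1 (KO-labelled) and 83.6 (WT). The cerebellar Slc1a6 read 15.6 (KO-labelled) and 16.8 (WT). No ratio is given for these 4, since both arrays were below the floor.

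Neutral amino acid carriers of the Slc38 family reached the floor in 6 of 9 members, 4 of them higher and 2 lower, with a median log2 ratio of 0.22. This direction depended on the processing, since the family median ran from -0.32 to 0.41 and took the opposite sign in 5 of 10 alternatives. Slc38a1 (SNAT1), which brings glutamine into cells, read 3778 on the KO-labelled array and 2918 on the WT array, 1.29-fold higher. Its other probe set read 2680 (KO-labelled) and 3091 (WT) and went the opposite way. Slc38a2 (SNAT2), a carrier known to be induced when amino acids are withdrawn, read 3820 on the KO-labelled array and 3496 on the WT array, 1.09-fold higher. A second Slc38a2 probe set had 518 on the KO-labelled array and 991 on the WT array, 1.91-fold lower. For both genes the direction thus differed between probe sets.

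Slc38a6, a less studied family member, had the third highest ratio of the 30. It read 659 on the KO-labelled array and 446 on the WT array, 1.48-fold higher, a log2 ratio of 0.56, in its only probe set at the floor. Its log2 ratio stayed between 0.52 and 0.76 over the alternatives. The floors and the ways to choose a probe set could not move it. Only that probe set was at the floor, and both its signals were above each floor used. The range is therefore no check on that probe set. Slc38a10 was read by 7 probe sets, 6 of them above the floor. The brightest had 9096 on the KO-labelled array and 7347 on the WT array, 1.24-fold higher, and the other 5 had log2 ratios from -0.57 to 0.44, with 4 opposite. No direction can be given for Slc38a10. Below the floor on both arrays were the liver and kidney glutamine carrier Slc38a3, at 104 (KO-labelled) and 152 (WT), Slc38a4, a carrier known from liver and placenta, at 25.3 (KO-labelled) and 44.4 (WT), and Slc38a5, a glutamine and glycine carrier, at 20.2 (KO-labelled) and 81.1 (WT).

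Lysosomal carriers read slightly apart in both directions. Slc38a9, the arginine-gated lysosomal carrier that signals to mTORC1, had 407 on the KO-labelled array and 507 on the WT array, 1.25-fold lower, while its other probe sets at the floor had log2 ratios of -0.16 and 0.32. Slc38a7, a lysosomal exporter of glutamine and asparagine, read 301 on the KO-labelled array and 411 on the WT array, 1.36-fold lower in its single probe set. The proton-coupled Slc36a1 (PAT1), which empties small amino acids from lysosomes, had 1631 on the KO-labelled array and 1508 on the WT array, 1.08-fold higher. Slc36a4, a high-affinity relative, read 1056 (KO-labelled) and 981 (WT), again 1.08-fold higher. The fat and kidney carrier Slc36a2 read 214 on the KO-labelled array and 250 on the WT array, 1.17-fold lower, and Slc36a3 was below the floor at 117 (KO-labelled) and 140 (WT). None of these 5 with a ratio reached 1.5-fold.

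The heavy chain that anchors amino acid exchangers at the surface was level. Slc3a2, the CD98 heavy chain, read 2142 on the KO-labelled array and 2188 on the WT array, a log2 ratio of -0.03. Its light chain Slc7a5 (LAT1), which imports leucine and other large neutral amino acids, had 971 on the KO-labelled array and 922 on the WT array, a log2 ratio of 0.07. The light chain Slc7a6 (y+LAT2) had 404.5 (KO-labelled) and 379 (WT), a log2 ratio of 0.09, and its other probe set had 0.10. Other partners of CD98 were lower. Slc7a8 (LAT2) read 252 on the KO-labelled array and 332 on the WT array, 1.32-fold lower in its single probe set. Slc7a7 (y+LAT1), shown above by its start region and known from kidney, intestine and macrophages, read 129 on the KO-labelled array and 216 on the WT array, at least 1.30-fold lower, and its other probe set read 138 (KO-labelled) and 192 (WT), at least 1.16-fold lower.

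Beside the lower Slc7a7 signals, macrophage and other leukocyte markers had a median log2 ratio of 0.01, with 6 higher and 6 lower among the 12 of 19 that reached the floor, and a summed signal of 6873 on the KO-labelled array and 7222 on the WT array. Among macrophage genes, Cd68 was at least 1.498-fold lower and Lyz2 1.38-fold lower. The complement genes C1qa, C1qb and C1qc were also lower, at log2 ratios of -0.42, -0.21 and -0.30. Adgre1, Csf1r and Cd14 were higher at 0.10, 0.15 and 0.22. Both C1qb and Csf1r had 1 of their 2 other probe sets opposite. The general leukocyte gene Ptprc was also higher, at 0.33, and 7 listed markers, Itgam, Cd3e, Cd3g, Cd4, Cd79a, Nkg7 and Kit, were below the floor on both arrays. Their part in the Slc7a7 value was not tested.

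The light chain Slc7a10 (Asc-1), known from brain and as a surface marker of white fat cells, read 18.2 on the KO-labelled array and 170 on the WT array, barely above the floor, so it is bounded at no less than 1.03-fold lower. Adipocyte markers split, with 3 higher and 3 lower among the 6 of 9 at the floor. Their median log2 ratio of 0.24 took the opposite sign in 3 of 10 alternatives. The summed signal was 3377 on the KO-labelled array and 1794 on the WT array, and most of that gap came from Car3, at 1278 (KO-labelled) and 234 (WT). Adipoq read 255 (KO-labelled) and 13.8 (WT), and Fabp4 read 1001 (KO-labelled) and 559 (WT). Lower were Retn, at 341 (KO-labelled) and 387 (WT), Plin4, at 299.95 (KO-labelled) and 372 (WT), and Lipe, at 153 (KO-labelled) and 184 (WT). Cidec, Lep and Pparg were below the floor. Their part in the Slc7a10 or Slc36a2 values was not tested.

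Slc7a11, the cystine and glutamate exchanger xCT whose start region is printed above, was below the floor at 50.7 on the KO-labelled array and 72.3 on the WT array. The rBAT heavy chain Slc3a1 and its light chains were also below it. Slc3a1 read 117 on the KO-labelled array and 90.0 on the WT array, Slc7a9, the cystine carrier of the kidney, 93.8 (KO-labelled) and 93.2 (WT), and Slc7a13, its counterpart for aspartate and glutamate, 72.1 (KO-labelled) and 20.6 (WT). Slc7a12, a further light chain known from mouse kidney, had 75.1 (KO-labelled) and 72.4 (WT), and Slc7a15 had 7.95 (KO-labelled) and 8.04 (WT). Transcripts of the rBAT heterodimers were thus not told from background on either array.

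Cationic carriers of the Slc7 family import arginine, lysine and ornithine, the last a precursor of the polyamines that prostate secretes. Slc7a1 (CAT1) read 1804 on the KO-labelled array and 1709 on the WT array, 1.06-fold higher, and its other probe set at the floor 1908 (KO-labelled) and 1431 (WT), 1.33-fold higher. Both Slc7a1 probe sets pointed up, and the gene's log2 ratio was above 0 in all 10 alternatives, from 0.02 to 0.27. With both up, only the 3 scalings could have changed that sign. Slc7a4, a relative of the cationic carriers, had 5806 on the KO-labelled array and 6646 on the WT array, 1.14-fold lower. Its other 2 probe sets had log2 ratios of -0.29 and -0.14, so that all 3 agreed in sign. Slc7a2 (CAT2), the carrier associated with activated macrophages, read 171 on the KO-labelled array and 184 on the WT array, just above the floor. The neuronal Slc7a3, at 78.6 (KO-labelled) and 118 (WT), and Slc7a14, at 28.1 (KO-labelled) and 19.7 (WT), were below it.

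Large neutral amino acid facilitators of the Slc43 family split. Slc43a2 (LAT4), which lets branched-chain amino acids, phenylalanine and methionine pass along their gradient, had 950 on the KO-labelled array and 583 on the WT array, 1.63-fold higher, a log2 ratio of 0.70. This was 1 of the 2 members at least 1.5-fold higher. Its second probe set at the floor read 360 on the KO-labelled array and 346 on the WT array, 1.04-fold higher, so the size rested on a single probe set. A further Slc43a2 probe set was near 0, at 4.55 (KO-labelled) and 3.11 (WT). Slc43a1 (LAT3), first described as a transcript overexpressed in human prostate cancer, read 237 on the KO-labelled array and 314 on the WT array, 1.33-fold lower in its single probe set. Slc43a3, a purine base carrier, was below the floor at 120.2 (KO-labelled) and 138 (WT).

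**Figure D3:**
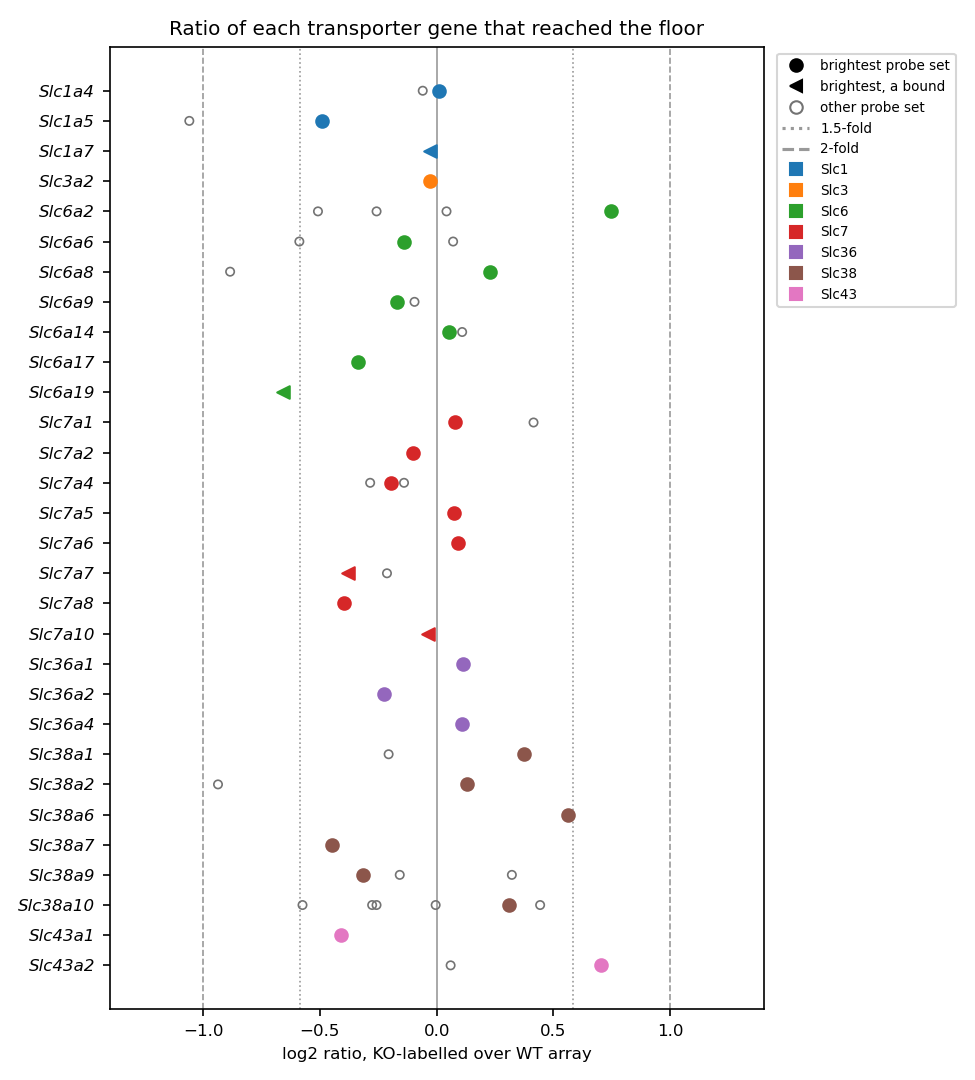
Log2 ratio, KO-labelled over WT array, of the 30 members that reached the floor (large symbols, coloured by family; triangles are bounds) with their other probe sets that reached it (open circles) and the 1.5-fold and 2-fold thresholds. Slc6a2 and Slc43a2 lie beyond 1.5-fold higher, and the open circles of Slc6a2, Slc6a8, Slc38a2 and Slc38a10 reach to the opposite side of 0.

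The Slc6 family held the member with the highest ratio, and that gene's probe sets disagreed. Slc6a2, the noradrenaline reuptake transporter of sympathetic neurons, read 3370 on the KO-labelled array and 2007 on the WT array, 1.68-fold higher, a log2 ratio of 0.75. Its other 3 probe sets all reached the floor on both arrays. One read 794 (KO-labelled) and 772 (WT), a log2 ratio of 0.04, another 374 (KO-labelled) and 448 (WT), a log2 ratio of -0.26, and the last 363 (KO-labelled) and 517 (WT), a log2 ratio of -0.51. The median over the 4 probe sets was -0.11, below 0. Markers of neurons and nerve sheaths were mostly not detected, with 10 of 14 below the floor on both arrays, among them Th, the noradrenaline-synthesis enzyme gene, at 111 (KO-labelled) and 55.2 (WT). Dbh, which makes noradrenaline, read 228 on the KO-labelled array and 187 on the WT array, with its other probe set opposite. Uchl1, at 147 (KO-labelled) and 197 (WT), and Mbp, at 721 (KO-labelled) and 797 (WT), were lower, Mbp with 2 of its 5 other probe sets at the floor opposite. Sox10 read 546 (KO-labelled) and 539 (WT), so the 4 nerve markers at the floor were 2 higher and 2 lower. Prph, counted below the floor by its brightest probe set, had another probe set at it. The summed marker signal was 2230 on the KO-labelled array and 2321 on the WT array, and its part in the Slc6a2 value was not tested.

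Slc6 carriers of osmolytes and of glycine were close to level. The taurine transporter Slc6a6 had 890 on the KO-labelled array and 980 on the WT array, 1.10-fold lower, with log2 ratios of 0.07 and -0.59 in its other probe sets at the floor. The creatine transporter Slc6a8 read 788 on the KO-labelled array and 672 on the WT array, 1.17-fold higher, but its other probe set read 286 (KO-labelled) and 527 (WT), 1.85-fold lower. These Slc6a6 and Slc6a8 probe sets again set opposite directions for a single gene. Slc6a9 (GLYT1), a glycine carrier, read 1032 on the KO-labelled array and 1160 on the WT array, 1.12-fold lower, and its other probe set had a log2 ratio of -0.10. Slc6a14, an epithelial carrier of neutral and basic amino acids, had 330 on the KO-labelled array and 318 on the WT array, and its other probe set 305 (KO-labelled) and 283 (WT), both slightly higher.

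Some Slc6 members were lower. Slc6a19 (B0AT1), the neutral amino acid carrier of intestine and kidney, read 78.3 on the KO-labelled array, below the floor, and 262 on the WT array, at least 1.58-fold lower. It was the single member whose lower limit passed 1.5-fold. Its other probe set was near 0 at 3.06 (KO-labelled) and 6.04 (WT). The vesicular carrier Slc6a17 of neurons read 301 on the KO-labelled array and 380 on the WT array, 1.26-fold lower. The other 11 Slc6 members were below the floor on both arrays, with signals up to 133. They were the dopamine and serotonin transporters Slc6a3 and Slc6a4, the glycine transporter Slc6a5, the proline transporter Slc6a7, the GABA and betaine carriers Slc6a11, Slc6a12 and Slc6a13, and Slc6a15, Slc6a16, Slc6a18 and Slc6a21.

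Agreement between probe sets of the same gene limited what could be read from these ratios. Of the 30 members at the floor, 14 had a single probe set at it. Of the 16 with several, all probe sets pointed the same way in 8, namely Slc1a5, Slc6a9, Slc6a14, Slc7a1, Slc7a4, Slc7a6, Slc7a7 and Slc43a2, and at least 1 was opposite in the other 8. Counting only probe sets at the floor on both arrays, 7 of 14 members had all in 1 direction, beside 1952 of 4497 genes, 43.4%. Over the 55 member probe sets at the floor, with 6 of them at their limits, 22 were higher and 33 lower, beside 45.2% and 54.8% of all 20538 such probe sets. At 1.5-fold, 2 of the 55 were higher and 5 lower, beside 4.85% and 7.62% of all, the lower ones in Slc1a5, Slc6a6, Slc6a8, Slc6a19 and Slc38a2.

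Other carriers of amino acids also had ratios in both directions. Of 20 listed genes outside these families, 19 had a probe set of their own and 11 reached the floor, 5 higher and 6 lower, with a median log2 ratio of -0.12. The mitochondrial glycine carrier Slc25a38 was lowest, at 828 on the KO-labelled array and 1301 on the WT array, 1.57-fold lower. The aromatic amino acid carrier Slc16a10 read 385 (KO-labelled) and 492 (WT), a log2 ratio of -0.36. Highest were the lysosomal cystine exporter Ctns, at 1200 on the KO-labelled array and 941 on the WT array, and the lysosomal Slc66a1, at least 1.23-fold higher. Transcripts of partner proteins were level or lower in their brightest probe sets. Bsg, the chaperone of monocarboxylate carriers, read 5173 (KO-labelled) and 6796 (WT). The ubiquitin ligase genes Nedd4 and Nedd4l had log2 ratios of -0.05 and 0.03. The other Nedd4l probe set at the floor was higher, at a log2 ratio of 0.56. Of 7 listed partners, 4 had a probe set of their own, and Bsg, Nedd4 and Nedd4l were the 3 that reached the floor.

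Genes that sense amino acids through mTORC1 were higher in 22 and lower in 13 of 35, 62.9% higher, beside 47.0% of all genes and 57.9% of genes with a signal at least 5 times the floor, a level that 24 of the 35 had. Their median log2 ratio was 0.11 and ran from 0.03 to 0.30 over the 10 alternatives. None differed by 2-fold. Castor2, an arginine sensor, read 334 on the KO-labelled array and 210 on the WT array, 1.59-fold higher, with its other probe set opposite, and the lysosomal scaffold gene Lamtor4 had a log2 ratio of 0.49. Sesn3, of the sestrin family of leucine sensors and stress proteins, read 5862 on the KO-labelled array and 10794 on the WT array, 1.84-fold lower, with its other probe set opposite. Tsc2, which restrains mTORC1, was 1.504-fold lower in its single probe set at the floor.

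Genes of the GCN2 and ATF4 amino acid response were 13 higher and 16 lower of 29, with a median log2 ratio of -0.05. The list mixes target genes with components of the pathway itself, among them Eif2ak4 (GCN2), Gcn1, Impact and Atf4. Its median is thus no reading of the targets alone. That median took the opposite sign in 4 of 10 alternatives. Ddit4, an mTORC1 inhibitor induced by stress, read 905 on the KO-labelled array and 1623 on the WT array, 1.79-fold lower, and the phosphatase subunit gene Ppp1r15a had a log2 ratio of -0.45. Vldlr, a lipoprotein receptor, read 503 (KO-labelled) and 279 (WT), 1.80-fold higher, with both other probe sets opposite. Cebpg, a partner of ATF4, had a log2 ratio of 0.42, with 1 of its 2 other probe sets at the floor opposite. Enzymes of glutamine, glutamate and aspartate metabolism were 7 higher and 5 lower of 12, with a median of 0.04. Got1, which makes cytosolic aspartate, had 293 on the KO-labelled array and 419 on the WT array, a log2 ratio of -0.52, and the asparagine synthetase gene Asns -0.24, while the alanine aminotransferases Gpt and Gpt2 both had 0.32, the second with all 3 other probe sets at the floor opposite.

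**Figure D4:**
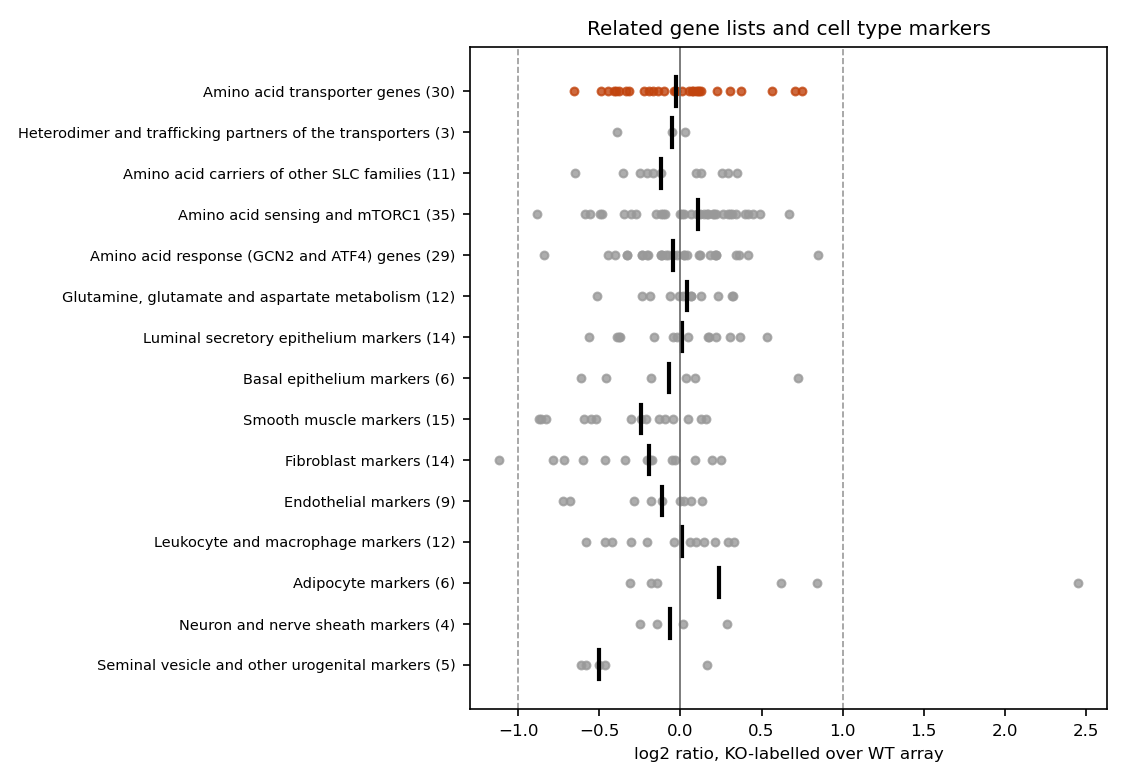
Log2 ratio, KO-labelled over WT array, of the 30 transporter genes (top row) and of the listed related genes and cell type markers that reached the floor (points, number in brackets), with each row's median as a black bar and the 2-fold thresholds dashed. The transporter median of -0.03 lies near 0, and smooth muscle, fibroblast and urogenital markers have medians of -0.24, -0.20 and -0.50.

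Luminal secretory markers, which define the labelled tissue, reached the floor in 14 of 14 genes, with Pbsn, the androgen-dependent secretory gene probasin, at 26812 on the KO-labelled array and 34870 on the WT array. Luminal markers had a median log2 ratio of 0.01, 7 of 14 higher, and a summed signal of 228378 (KO-labelled) and 235608 (WT). Basal markers had a median of -0.07 over 6 genes, with sums of 4682 (KO-labelled) and 4906 (WT). Smooth muscle markers had a median of -0.24, with 12 of 15 lower and sums of 61212 (KO-labelled) and 74837 (WT). Fibroblast markers had a median of -0.20, with 11 of 14 lower and sums of 34976 (KO-labelled) and 36945 (WT). Endothelial markers had a median of -0.12, with 6 of 9 lower and sums of 2824 (KO-labelled) and 3165 (WT). Under median centring the smooth muscle median was -0.05 and the fibroblast median -0.01, with 9 of 15 and 8 of 14 lower, and the endothelial median was above 0 in 2 of 10 alternatives. Seminal vesicle and other urogenital markers had a median of -0.50 over 5 genes, 4 of them lower, with sums of 5283 (KO-labelled) and 7460 (WT). Most of these 5 were genes of the Upk (uroplakin) family. The other 6 of 11 were below the floor, among them all listed seminal vesicle genes on the array. The part of these marker sets in the transporter values was not tested.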

How the data were processed

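The values analysed were linear signal intensities of 45101 probe sets, deposited by the authors for 2 arrays. The submitters' processing notes name GCOS 1.4, and the sources used here do not say how it was set. Grouping came from the genotype labels. Of 45037 non-control probe sets, 34945 had 1 symbol in the platform annotation, 932 several and 9160 none. Only single-symbol probe sets were used, and 58 of 58 member symbols matched RefSeq by gene ID. Low values were raised to the floor, the log2 ratio was the KO-labelled array over wild type, and no pseudocount was added. Every member is given by name. In each related list up to 2 genes with the highest and 2 with the lowest ratios were named; Adipocyte, macrophage and nerve markers named beside a member, Ptprc and Pbsn were added as cell type references. The members, lists and thresholds were chosen with earlier results of these data known, and the ATF4 letters after the values were seen. The alternatives were 3 scalings, 3 floors, a pseudocount, 3 ways to choose a probe set, other fold thresholds and the mean. Calculations used Python 3.11.15, pandas 2.3.3, numpy 2.4.6 and statsmodels 0.14.6 (loess, span 0.4) and were tested on simulated data. With 1 array per group no p-value, standard error or replicate spread exists, and detection calls were not used here.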

Additional observations from a re-analysis of the deposited data

How the results depend on the processing

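No paired analysis was possible because each group held 1 array. No member's ratio, limits taken at their value, passed 2-fold in either direction under median centring, quantile normalization or loess. The same held for the median over probe sets and for unsuffixed probe sets (names not ending in _s_at, _x_at or _a_at). None passed with a 70th percentile floor, a pseudocount of 50, the probe set nearest to a ratio of 1 or a threshold of 3-fold. Nor did any of the 22 members with no opposite probe set, a subset chosen after seeing the data. For that subset and the settings named just before it, the main result fixed this outcome. They can only shrink or drop its ratios or raise the threshold, so they are no check on it. A 30th percentile floor let in 44 members, of which 3 were at least 2-fold lower, namely Slc1a7, Slc6a19 and Slc7a10 (0 higher), and with no floor 3 of 58 were higher and 8 lower. At 1.5-fold the counts were 2 higher and 1 lower. The members' median log2 ratio of -0.03 was 0.18 under median centring, 0.038 under quantile normalization, -0.12 and 0.11 under the 30th and 70th percentile floors, -0.11 with no floor and -0.12 with the median over probe sets. That median was -0.006 under loess, -0.03 with the pseudocount and with the probe set nearest to a ratio of 1, and -0.05 with unsuffixed probe sets. The mean in its place was -0.03. Over all genes, 69 were at least 2-fold higher and 103 lower, which became 161 and 33 under median centring, 82 and 73 under quantile normalization, 77 and 76 under loess, 203 and 505 under the 30th percentile floor, 37 and 25 under the 70th, 967 and 1884 with none, 49 and 46 with the pseudocount, and 42 and 79 with the median over probe sets. Of the 30 members, 20 kept their sign in every alternative that gave a value and 10 did not. The 20 include Slc1a7, Slc6a19, Slc7a7 and Slc7a10, whose direction the floor fixed. For a member with a single probe set at the floor, only the 3 scalings could change the sign. The count of 20 is therefore no measure of how stable the directions are. Low signal limits the 28 members below the floor, for which no direction is given.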

Other observations

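Probe sets that the gene rule left out carried low signals. The opposite-strand gene Slc7a6os read 124 and 74.6 in 2 probe sets on the KO-labelled array and 112 and 35.7 on the WT array. Slc6a19os read 84.7 on the KO-labelled array and 102 on the WT array, and Slc36a1os read 12.1 (KO-labelled) and 30.9 (WT). A probe set shared by Slc1a2 and Gm13872 read 24.1 on the KO-labelled array and 30.01 on the WT array. All 5 were below the floor of 166 on both arrays.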
